A study of Homo sapiens with 15 samples.

Results

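The miRNAs miR-10a, miR-10b, miR-196a and miR-196b are encoded inside the HOX clusters, the 4 groups of homeobox genes that pattern the body axis. They were chosen by name, as every miRNA whose name begins with hsa-miR-10a-, hsa-miR-10b-, hsa-miR-196a- or hsa-miR-196b-, which gave 8 mature miRNAs of the 2418 counted in the knockdown libraries and the same 8 of the 2189 counted in the RIP-seq libraries. All 8 had reads in all 15 libraries and passed the filter on low counts in all 4 comparisons. The libraries held small RNA of FTO1C1, FTO2D4 and FTO3C3, which are clonal derivatives of HEK293, a human embryonic kidney cell line. The clones were used uninduced in the knockdown, and whether they were induced for the RIP-seq libraries is not stated. In 3 scrambled siRNA and 3 FTO siRNA libraries, 1 of each per clone, RNA was taken 48 h after lipofection of 10 nM siRNA, and the siRNA was aimed at FTO, an enzyme that removes the methyl group of N6-methyladenosine (m6A) from RNA. From cells of the same 3 clones, for which no siRNA treatment is stated, came 3 m6A precipitates (RNA pulled down with an antibody to m6A), 3 IgG precipitates (the same step with an isotype control antibody) and 3 inputs (RNA before precipitation). The 3 clones are the replicates of each group, and they were the only biological material, so every value holds for this line. FTO mRNA is not among the measured RNAs, so the knockdown itself was not checked here.

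A miRNA hairpin is cut into a duplex with a 5p and a 3p arm. Usually 1 arm is retained in an Argonaute protein as the guide, which pairs with target mRNAs through its seed, bases 2 to 8, and the other arm is discarded. The guides of this group are the 5p arms. HOX miRNAs follow the expression domain of their neighbouring HOX genes and act on HOX transcripts in turn, and HOXB8 is a known target of miR-196. The question asked of them was whether their levels followed FTO siRNA, and whether they were held by the antibody to m6A.

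The mature sequences show how close the guides are, and they are given because the results turn on a pair that differs by a single base. They were taken from RefSeq (GRCh38.p14), in which 7 of the 8 names matched and hsa-miR-10b-5p did not. Capitals mark the seed.
hsa-miR-196a-5p: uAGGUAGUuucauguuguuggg
hsa-miR-196b-5p: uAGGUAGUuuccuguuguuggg
hsa-miR-10a-5p: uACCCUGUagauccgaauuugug
hsa-miR-196a-3p: cGGCAACAagaaacugccugag
hsa-miR-196b-3p: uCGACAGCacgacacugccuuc
hsa-miR-10a-3p: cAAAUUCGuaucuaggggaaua
hsa-miR-10b-3p: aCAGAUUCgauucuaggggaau
miR-196a-5p and miR-196b-5p shared the seed AGGUAGU with each other and with no other of the 2370 mature sequences of that table. They differed by 1 substitution, A12C, counted from the 5′ end of miR-196a-5p, which lies outside the seed. Reads were assigned by exact matching stretches, so a sequencing error at that base could move a read from one to the other, and how many reads moved was not tested. For miR-10a-5p and miR-10b-5p the difference could not be computed, since miR-10b-5p had no sequence here. Whether reads moved between those guides was not tested either.

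The hairpins sit in the HOXA, HOXB, HOXC and HOXD clusters. MIR10A lies within the HOXB3 gene between HOXB4 and HOXB5, with miR-10a-5p at chr17:48579904-48579926 and miR-10a-3p at chr17:48579864-48579885 on the minus strand. MIR10B lies between HOXD8 and HOXD4, with miR-10b-3p at chr2:176150368-176150389 on the plus strand. miR-196a-5p has 2 source hairpins of the same mature sequence, MIR196A2 between HOXC10 and HOXC9 (chr12:53991762-53991783, plus strand) and MIR196A1 between HOXB9 and PRAC2 (chr17:48632532-48632553, minus strand), and its reads cannot be divided between them. miR-196a-3p belongs to MIR196A2 (chr12:53991799-53991820, plus strand). MIR196B lies between HOXA9 and HOXA10, inside the span of the HOXA10-HOXA9 readthrough gene, with miR-196b-5p at chr7:27169528-27169549 and miR-196b-3p at chr7:27169493-27169514 on the minus strand. Whether these positions are exonic or intronic was not assessed.

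The libraries held between 1991317 and 3876806 miRNA reads in the knockdown and between 186446 (IgG, FTO3C3) and 4973238 (m6A, FTO3C3) in the RIP-seq experiment. Values are reads per 1000000 miRNA reads of the library (RPM). In the RIP-seq libraries 15.5% to 71.6% of the reads were miR-6080 alone, and its count was the same number, 563404, in the m6A and the IgG library of FTO2D4, where no other of the 77 miRNAs with at least 1000 reads in either library had equal counts. Both totals rest in large part on that number, and calls of the 8 that change without miR-6080 in the totals or without FTO2D4 are named beside the result. The 5 guides of the miR-17-92 cluster checked as markers of HEK293 summed to 24197 to 62725 RPM in the siRNA and input libraries, 1166 to 1737 RPM in the m6A precipitates and 258 to 429 RPM in the IgG precipitates. Of these guides, 2 had no read in an IgG library. Of 8 markers of liver, muscle, blood and neurons, the knockdown counts held 7 and the RIP-seq counts 6. They summed to 84.7 to 135 RPM in the siRNA libraries, 448 to 882 RPM in the inputs, 811 to 2021 RPM in the m6A precipitates and 89.0 to 145 RPM in the IgG precipitates, and 1 of them had no read in an IgG library. Their part in the results was not tested.

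miR-10a-5p was the most abundant miRNA in all 6 siRNA libraries and miR-10b-5p came next. In the scrambled siRNA libraries of FTO1C1, FTO2D4 and FTO3C3, miR-10a-5p stood at 306280, 294899 and 221235 RPM. miR-10b-5p stood at 112770, 97741 and 87493 RPM in the same order. In the inputs miR-10a-5p ranked 2 or 3 and miR-10b-5p 4 or 5 by reads, at 125480 ± 33039 RPM and 37551 ± 8831 RPM (mean ± SD, n = 3). The miR-196 guides were far lower, with 2910 ± 1213 RPM of miR-196a-5p and 3781 ± 555 RPM of miR-196b-5p in the scrambled siRNA libraries (SD, n = 3). Those spreads overlap, and in FTO2D4 miR-196a-5p was the higher of the pair. Among the 3p arms, miR-10a-3p (184 ± 3.66 RPM) and miR-196a-3p (175 ± 62.4 RPM) did not differ beyond their spread, miR-10b-3p stood at 92.6 ± 6.28 RPM, and miR-196b-3p was the lowest at 15.3 ± 1.84 RPM (SD, n = 3). All 8 miRNAs together took 31.4% to 42.6% of the reads of the scrambled siRNA libraries, 34.7% to 38.7% of the FTO siRNA libraries, 12.8% to 21.2% of the inputs, 8.86% to 11.6% of the m6A precipitates and 0.106% to 0.247% of the IgG precipitates.

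**Figure D1:**
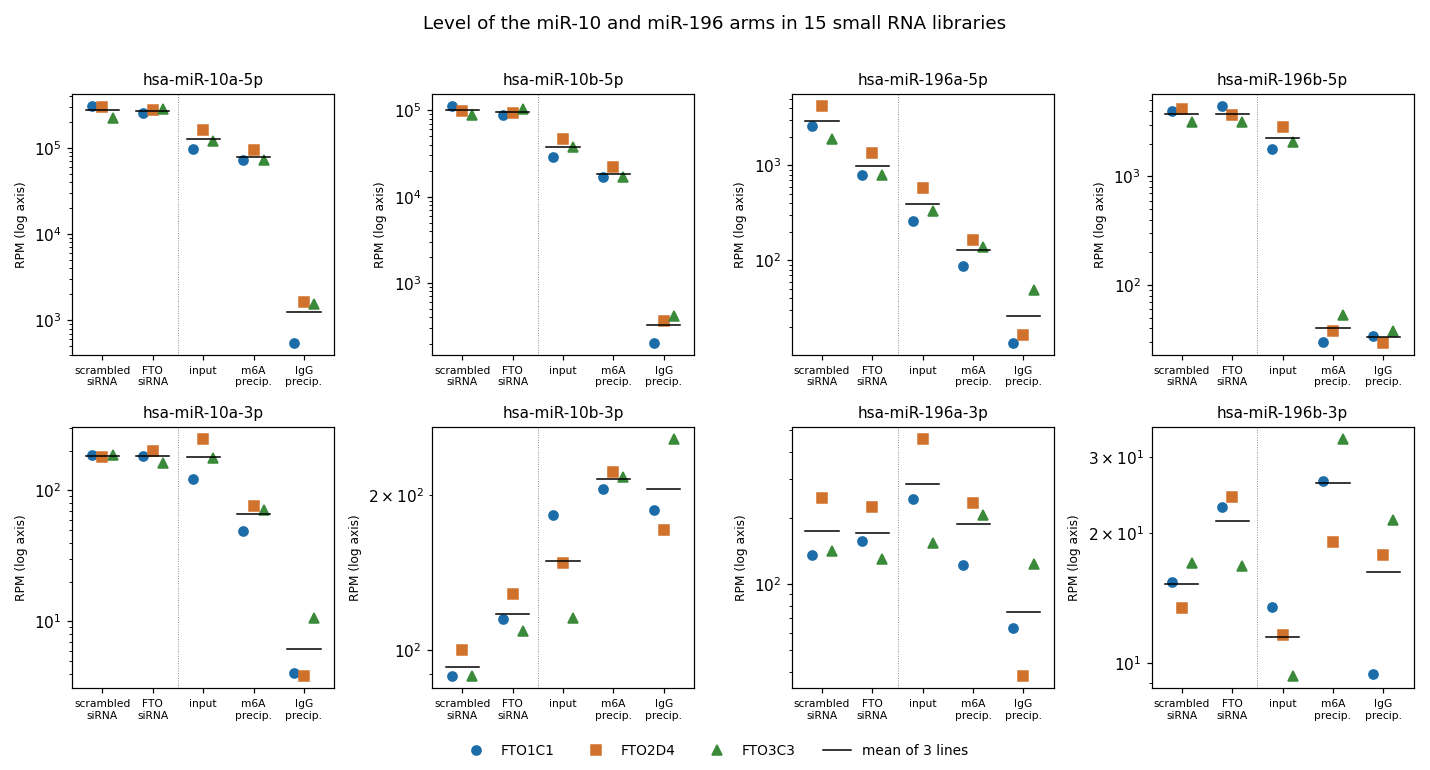
Level of each of the 8 mature miRNAs in RPM (log axis, a scale of its own in each panel) in the 5 groups; each symbol is the library of 1 clone and the line is the mean of 3. miR-196a-5p was lower in the FTO siRNA than in the scrambled siRNA libraries, and miR-196b-5p fell from 1803 to 2853 RPM in the inputs to 29.9 to 52.5 RPM in the m6A precipitates, next to 29.2 to 37.5 RPM in the IgG precipitates.

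After FTO siRNA, miR-196a-5p fell and the other 7 miRNAs of the group did not pass the test in either direction. In FTO1C1, FTO2D4 and FTO3C3, miR-196a-5p stood at 2589, 4251 and 1890 RPM after scrambled siRNA and at 799, 1350 and 785 RPM after FTO siRNA. Every FTO siRNA library was below every scrambled siRNA library, as for 47 of the 2418 miRNAs in that direction. The ratio within a clone was 0.309, 0.318 and 0.415. The log2 fold change was -1.54 with an SE of 0.15 (edgeR quasi-likelihood test, adjusted p = 0.000704). Of all 2374 miRNAs tested, 0.505% fell and 4.97% rose by the same test, so a fall was rare in this comparison. The median log2 fold change was 0.29 over all miRNAs and -0.016 over the 8, and TMM scaling, which brings the median of all to about 0, changed the overall counts from 118 higher and 12 lower to 21 higher and 34 lower, with miR-196a-5p still the only one of the 8 that passed. Without FTO1C1 the fold change of miR-196a-5p was -1.46 but the adjusted p rose to 0.116, in a fit of 4 libraries in which no miRNA passed and 327 had an unadjusted p under 0.05.

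Its closest relative, miR-196b-5p, did not pass the test. miR-196b-5p, with the same seed, stood at 4038, 4161 and 3143 RPM with scrambled siRNA and at 4474, 3703 and 3175 RPM with FTO siRNA, and the groups overlapped. The log2 fold change was -0.0017 with an SE of 0.13 (edgeR, adjusted p = 0.992). The opposite arm of the miR-196a-2 hairpin, miR-196a-3p, stood at 136, 247 and 142 RPM with scrambled siRNA and at 157, 224 and 131 RPM with FTO siRNA, again with overlapping groups and a log2 fold change of -0.018 with an SE of 0.16 (edgeR, adjusted p = 0.954).

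Because both miRNAs of a ratio come from the same library, the ratio does not depend on the library total. Reads of miR-196a-5p per read of miR-196b-5p in the scrambled siRNA libraries were 0.641, 1.02 and 0.601, and those in the FTO siRNA libraries 0.179, 0.365 and 0.247. The groups did not overlap, and the log2 change of the ratio was -1.54 with an SE of 0.17 (edgeR with the reads of miR-196b-5p as the library size, adjusted p = 0.00077). In that fit 2.4% of the miRNAs passed, and the ratio passed in all 6 alternatives, including each clone left out. Of these, a minimum of 100 partner reads left the fit unchanged. With the miRNAs of the ratio exchanged 99.2% of all miRNAs passed, so that pass is not particular to this ratio. Reads of miR-196a-5p per read of miR-196a-3p fell likewise, from 19.1, 17.2 and 13.3 to 5.10, 6.04 and 6.00 (log2 change -1.52 with an SE of 0.17, edgeR adjusted p = 0.00601, 2.49% of the miRNAs in that fit passed). That ratio did not pass without FTO1C1 (adjusted p = 0.0969), without FTO2D4 (adjusted p = 0.0803) or without the cell line block (adjusted p = 0.0509).

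The miR-10 guides differed between clones more than between treatments. miR-10a-5p with FTO siRNA stood at 252027, 273737 and 278421 RPM, and the within-clone ratio to scrambled siRNA rose in that order from 0.823 through 0.928 to 1.26. miR-10b-5p moved in the same order, with ratios of 0.787, 0.957 and 1.19, and neither passed the test (log2 fold changes -0.019 and -0.052, SE 0.14 for both, edgeR adjusted p = 0.948 and 0.832). The ratio of miR-10a-5p to miR-10b-5p in the scrambled siRNA libraries was 2.72, 3.02 and 2.53, and in the FTO siRNA libraries it was 2.84, 2.93 and 2.67. Its log2 change was 0.033 with an SE of 0.25 (edgeR, adjusted p = 0.956, 0.632% of the miRNAs in that fit passed). miR-10a-3p stood at 163 to 200 RPM with FTO siRNA and at 179 to 186 RPM with scrambled siRNA (log2 fold change -0.014, SE 0.16).

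The 2 least abundant 3p arms had the highest fitted values of the group without passing the test. miR-10b-3p stood at 89.1, 99.8 and 88.9 RPM with scrambled siRNA and at 115, 129 and 109 RPM with FTO siRNA, so that the groups did not overlap, as for 636 of the 2418 miRNAs in that direction. Its log2 fold change was 0.34 with an SE of 0.17 (edgeR, adjusted p = 0.235), close to the median of all miRNAs. miR-196b-3p rested on 33 to 84 reads per library and stood at 13.4 to 17.1 RPM against 16.8 to 24.3 RPM (log2 fold change 0.48, SE 0.22, edgeR adjusted p = 0.201). The ratios of the 5p to the 3p arm did not pass for miR-10a (log2 change -0.0056, 8.68% of the miRNAs in that fit passed), miR-10b (-0.39, 2.78% passed) and miR-196b (-0.47, 1.85% passed).

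**Figure D2:**
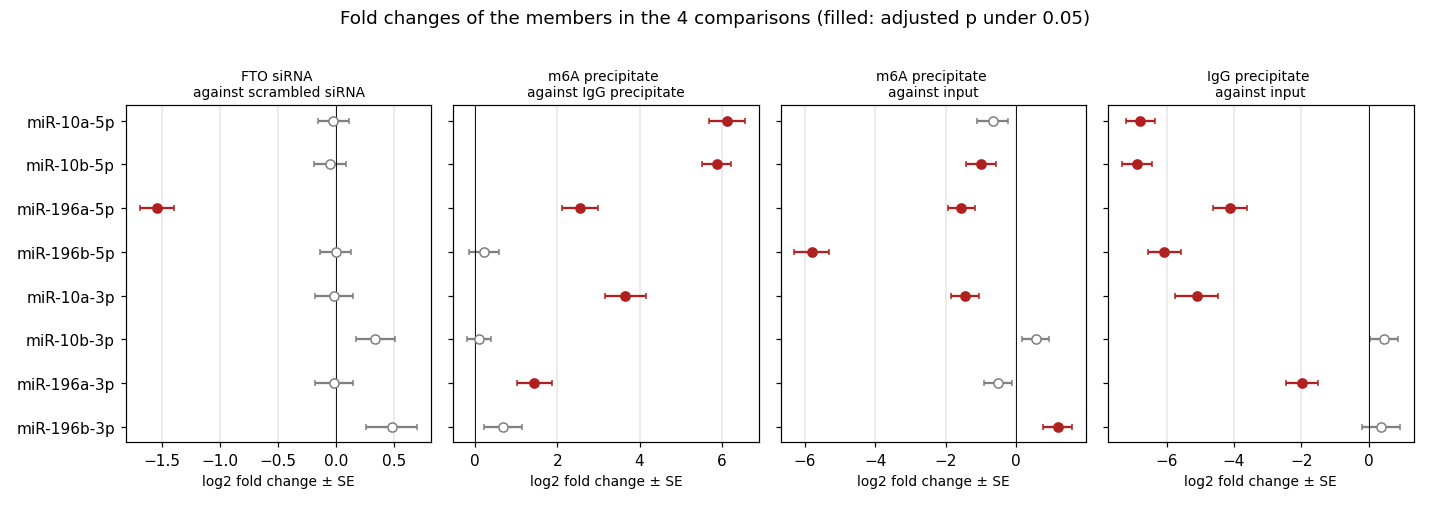
Log2 fold change ± SE of each of the 8 miRNAs in the 4 comparisons (x axis, a scale of its own in each panel), from 3 libraries per group; filled red symbols had an adjusted p under 0.05. With FTO siRNA miR-196a-5p is the only filled symbol, at -1.54, and in the m6A precipitate against the input miR-196b-5p stands lowest, at -5.81.

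In the m6A precipitates the miR-10 guides stood far above the IgG precipitates, miR-196a-5p stood above them by less, and miR-196b-5p did not. miR-10a-5p had 71217, 92993 and 71664 RPM in the m6A precipitates and 545, 1614 and 1555 RPM in the IgG precipitates of FTO1C1, FTO2D4 and FTO3C3. Within a clone this was 131, 57.6 and 46.1 times as much (log2 fold change 6.13, SE 0.44, edgeR adjusted p = 1.2e-05). miR-10b-5p had 16848, 21779 and 16977 RPM against 202, 367 and 413 RPM, or 83.3, 59.3 and 41.1 times as much (log2 fold change 5.88, SE 0.36, edgeR adjusted p = 5.1e-06). Both were higher in 3 of 3 clones by a wide margin, and their log2 fold changes were 5.10 or more in every alternative.

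miR-196a-5p had 87.8, 163 and 137 RPM in the m6A precipitates and 13.5, 16.5 and 48.3 RPM in the IgG precipitates. The groups did not overlap, as for 1004 of the 2189 miRNAs in that direction. The log2 fold change was 2.54 with an SE of 0.44 (edgeR, adjusted p = 0.00192). The IgG values rest on 10, 13 and 9 reads, so that the ratio of 2.84 in FTO3C3 has an exact 95% counting interval of 1.49 to 6.23. miR-196b-5p had 29.9, 37.4 and 52.5 RPM against 33.7, 29.2 and 37.5 RPM. The groups overlapped, the ratios were 0.885, 1.28 and 1.40, and the log2 fold change was 0.22 with an SE of 0.37 (edgeR, adjusted p = 0.672). The exact 95% counting interval of that ratio held 1 in each of the 3 clones. The ratio of miR-196a-5p to miR-196b-5p could not be fitted here, because miR-196b-5p had 7 reads in the IgG library of FTO3C3, under the minimum of 10. Reads of miR-196a-5p per read of miR-196b-5p were 2.94, 4.35 and 2.61 in the m6A precipitates and 0.400, 0.565 and 1.29 in the IgG precipitates.

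Of the 3p arms, miR-10a-3p and miR-196a-3p passed the test and miR-10b-3p and miR-196b-3p did not. miR-10a-3p had 49.2, 76.3 and 71.2 RPM in the m6A precipitates but only 3, 3 and 2 reads in the IgG precipitates. The within-clone ratio was 12.2 for FTO1C1 (exact 95% counting interval 3.75 to 62.5), 20.01 for FTO2D4 (6.66 to 98.6) and 6.64 for FTO3C3 (1.82 to 55.01), and the log2 fold change was 3.66 with an SE of 0.49 (edgeR, adjusted p = 0.00048). miR-196a-3p had 123, 234 and 207 RPM against 63.4, 38.1 and 123 RPM, with a small overlap of the groups (log2 fold change 1.44, SE 0.43, edgeR adjusted p = 0.026). That call was lost with TMM factors, DESeq2, totals without miR-6080, without FTO2D4 and without FTO3C3. miR-10b-3p had 205, 222 and 217 RPM against 187, 172 and 257 RPM, with overlapping groups and a log2 fold change of 0.091 (SE 0.29, edgeR adjusted p = 0.829). miR-196b-3p had 26.3, 19.1 and 32.98 RPM against 9.44, 17.8 and 21.5 RPM (log2 fold change 0.68, SE 0.46, edgeR adjusted p = 0.27).

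In all, 5 of the 8 were higher over IgG and none lower, where 38.6% of the 2054 miRNAs tested were higher and 1.27% lower. The median log2 fold change was 1.99 over the 8 and 0.83 over all miRNAs. TMM factors changed the overall counts from 792 higher and 26 lower to 453 and 302, with 4 of the 8 higher, and the values of miR-10b-3p (-0.65), miR-196b-5p (-0.54) and miR-196b-3p (-0.092) then lay on the other side of 0 without passing the test.

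Against the input, miR-196b-5p, miR-196a-5p, miR-10a-3p and miR-10b-5p fell in the m6A precipitates, miR-196b-5p by far the most, and miR-196b-3p rose. miR-196b-5p had 1803, 2853 and 2090 RPM in the inputs and 29.9, 37.4 and 52.5 RPM in the m6A precipitates, so it was 39.8 to 76.2 times lower within a clone. The log2 fold change was -5.81 with an SE of 0.49 (edgeR, adjusted p = 3.4e-10). In the IgG precipitates the same miRNA was 53.5 to 97.6 times lower than in the inputs (log2 fold change -6.07, SE 0.50, edgeR adjusted p = 2.2e-31). The m6A and the IgG precipitates thus held miR-196b-5p at about the same share. miR-196a-5p had 262, 572 and 332 RPM in the inputs and was 2.42 to 3.51 times lower in the m6A precipitates (log2 fold change -1.55, SE 0.39, edgeR adjusted p = 0.000817) and 6.88 to 34.6 times lower in the IgG precipitates (log2 fold change -4.12, SE 0.51, edgeR adjusted p = 1.7e-14).

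The difference between the miR-196 guides does not depend on the library totals. Reads of miR-196a-5p per read of miR-196b-5p were 0.145, 0.201 and 0.159 in the inputs and 2.94, 4.35 and 2.61 in the m6A precipitates, with no overlap. The log2 change of the ratio was 4.27 with an SE of 0.33 (edgeR, adjusted p = 8.6e-08), and it passed in all 5 alternatives that could be fitted. In that fit 99.4% of all miRNAs passed relative to miR-196b-5p, in either direction, so the change is not particular to miR-196a-5p.

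Both miR-10 guides had lower shares in the m6A and in the IgG precipitates than in the inputs. miR-10a-5p had 96696, 161556 and 118187 RPM in the inputs, and the m6A precipitates held 0.737, 0.576 and 0.606 of that share. The log2 fold change was -0.65 with an SE of 0.44 (edgeR, adjusted p = 0.175). miR-10b-5p had 28817, 46476 and 37359 RPM in the inputs, and the m6A precipitates held 0.585, 0.469 and 0.454 of it (log2 fold change -1.002, SE 0.43, edgeR adjusted p = 0.0345), a call that was lost without any one of the clones and with totals without miR-6080. The IgG precipitates held 76.0 to 177 times less miR-10a-5p and 90.5 to 142 times less miR-10b-5p than the inputs (log2 fold changes -6.79 and -6.88, SE 0.43 and 0.45, edgeR adjusted p = 1.3e-51 and 2.5e-48). The ratio of miR-10a-5p to miR-10b-5p was 3.36, 3.48 and 3.16 in the inputs, 4.23, 4.27 and 4.22 in the m6A precipitates and 2.69, 4.39 and 3.77 in the IgG precipitates. The ratio was higher in the m6A precipitate than in the input of each clone, and input and m6A values did not overlap. The change of the ratio did not pass the test between m6A and input (log2 change 0.35, SE 0.39, edgeR adjusted p = 0.399), m6A and IgG (0.26, SE 0.40, edgeR adjusted p = 0.53) or IgG and input (0.092, SE 0.26, edgeR adjusted p = 0.728). These SEs draw on the spread of the other miRNAs relative to miR-10b-5p too, so failing the test does not show that the ratio was constant. In those 3 fits 86.2%, 96.1% and 97.2% of all miRNAs passed relative to miR-10b-5p, in the same order.

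**Figure D3:**
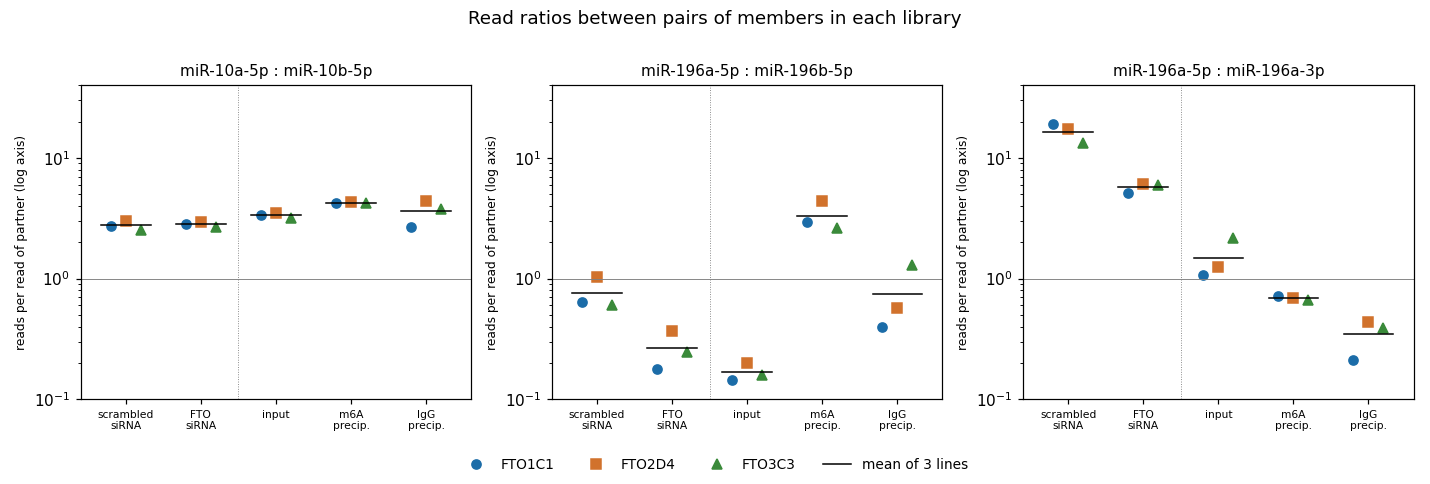
Reads of 1 miRNA per read of its partner in each library (log axis shared by the 3 panels); symbols are clones and lines the mean of 3. The ratio of miR-10a-5p to miR-10b-5p stays between 2.53 and 4.39 in all 15 libraries, whereas that of miR-196a-5p to miR-196b-5p runs from 0.145 in an input to 4.35 in an m6A precipitate.

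Of the 3p arms, miR-10a-3p fell against the input in both precipitates, and miR-10b-3p passed in neither. miR-10a-3p went from 122, 247 and 175 RPM in the inputs to 49.2, 76.3 and 71.2 RPM in the m6A precipitates (log2 fold change -1.44, SE 0.40, edgeR adjusted p = 0.00187) and further in the IgG precipitates (-5.11, SE 0.63, edgeR adjusted p = 6.3e-15), where 2 to 3 reads per library allow, by exact 95% counting intervals, from 0.00317 to 0.223 of the input share within a clone. miR-10b-3p stood at 183, 148 and 115 RPM in the inputs, and it passed neither in the m6A (log2 fold change 0.56, SE 0.39, edgeR adjusted p = 0.187) nor in the IgG precipitates (0.45, SE 0.43, edgeR adjusted p = 0.371). Its direction depended on the scale, since totals without miR-6080 put it past the threshold as higher in both the m6A (1.02, adjusted p = 0.0366) and the IgG precipitates (1.59, adjusted p = 0.000211), and TMM factors as lower in the m6A precipitates (-0.99, adjusted p = 0.0155). In the IgG precipitates there were 1.08, 2.14 and 1.60 reads of miR-10b-5p per read of miR-10b-3p, compared with 157, 314 and 324 in the inputs. miR-196a-3p stood at 244, 457 and 154 RPM in the inputs, and the clones went different ways in the m6A precipitates, with ratios to the input of 0.503 in FTO1C1, 0.512 in FTO2D4 and 1.34 in FTO3C3 (log2 fold change -0.51, SE 0.41, edgeR adjusted p = 0.255; without FTO3C3 -0.98, adjusted p = 0.0494). In the IgG precipitates its log2 fold change was -1.98 with an SE of 0.47 (edgeR, adjusted p = 9.3e-05), a call that was lost with totals without miR-6080 (-0.85, adjusted p = 0.0705) and without FTO2D4 (-1.18, adjusted p = 0.0606). miR-196b-3p rose in the m6A precipitates from 13.5, 11.6 and 9.33 RPM to 26.3, 19.1 and 32.98 RPM (log2 fold change 1.19, SE 0.42, edgeR adjusted p = 0.0112), although the input values rest on 14 to 19 reads, the call was lost without FTO3C3, and with TMM factors the value was -0.36. In the IgG precipitates miR-196b-3p did not pass (0.36, SE 0.56, edgeR adjusted p = 0.604) except with totals without miR-6080 (1.51, adjusted p = 0.00706).

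The arm ratios were fitted in the same way. Relative to its 3p arm, miR-10b-5p changed by 5.79 on the log2 scale between m6A and IgG (SE 0.39, edgeR adjusted p = 2.2e-07, 39.7% of the miRNAs in that fit passed), by -7.34 between IgG and input (SE 0.43, edgeR adjusted p = 3.1e-60, 56.9% passed) and by -1.56 between m6A and input (SE 0.61, edgeR adjusted p = 0.018, 71% passed). The change between m6A and input did not pass without FTO3C3 (adjusted p = 0.205). miR-196b-5p changed by -7.00 relative to miR-196b-3p between m6A and input (SE 0.40, edgeR adjusted p = 2.8e-06, 57% passed). In numbers of reads, the 3 inputs held 134, 245 and 224 reads of miR-196b-5p per read of its 3p arm and the m6A precipitates 1.13, 1.96 and 1.59. miR-10a-5p changed by 0.78 relative to miR-10a-3p between m6A and input (SE 0.31, edgeR adjusted p = 0.0299, 90.2% passed), a call that did not hold when the arms were exchanged in the fit (adjusted p = 0.076), without FTO1C1, without FTO2D4 or without the block. miR-196a-5p did not pass relative to miR-196a-3p between m6A and IgG (log2 change 1.05, edgeR adjusted p = 0.277, 12.3% passed), m6A and input (-1.05, edgeR adjusted p = 0.051, 77.6% passed) and IgG and input (-2.10, edgeR adjusted p = 0.0564, 62.7% passed). The second of these passed with the arms exchanged (adjusted p = 0.0117), an alternative chosen after the data were seen, and the third without the cell line block (adjusted p = 0.0043) and without FTO2D4 (adjusted p = 0.0175).

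Between the m6A precipitates and the inputs, 4 of the 8 fell and 1 rose, where 10.5% of the 2174 miRNAs tested fell and 66.8% rose. Between the IgG precipitates and the inputs, 6 of the 8 fell and none rose, where 21.8% of the 1941 miRNAs tested fell and 36.8% rose. With totals without miR-6080 these counts were 3 lower and 2 higher for m6A against input, and 5 lower and 2 higher for IgG against input. The median log2 fold changes were -0.83 over the 8 and 1.65 over all miRNAs for m6A against input, and -4.62 and 0.49 for IgG against input. TMM factors brought the median of all miRNAs to 0.10 for m6A against input, changed the overall counts from 1452 higher and 229 lower to 575 and 614, and gave 7 of the 8 lower and none higher, with miR-10a-5p at -2.20. For IgG against input they changed 714 higher and 423 lower to 559 and 586 and left the 6 of the 8 lower. The comparisons of m6A with IgG, m6A with input and IgG with input share libraries, so they do not count as separate evidence. Fewer molecules of a miRNA in a precipitate and more of the others cannot be told apart in shares of reads.

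**Figure D4:**
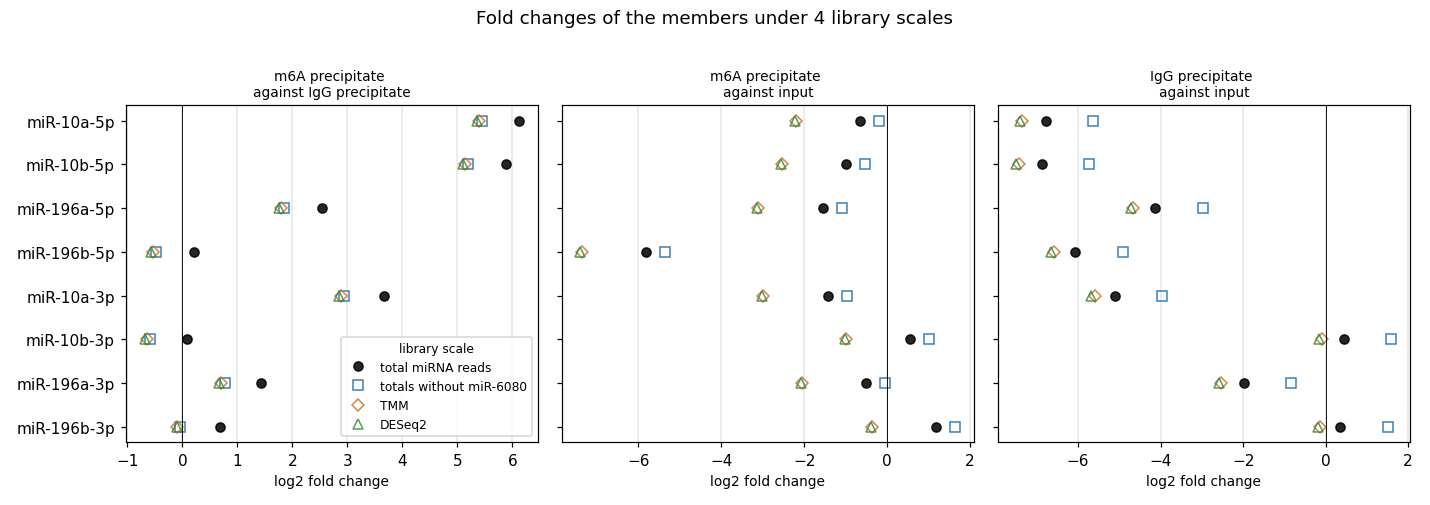
Log2 fold change of each of the 8 miRNAs in the 3 comparisons of the RIP-seq libraries under 4 library scales (total miRNA reads, totals without miR-6080, TMM factors and the size factors of DESeq2). The scales shift all 8 together, by up to about 2 on the log2 scale against the input, and nearly keep their order. miR-196b-5p is lowest in m6A against input and miR-10a-5p and miR-10b-5p are highest over IgG under each scale.

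The relatives outside this group were described by a fixed list, miR-615 (also in the HOXC cluster) and miR-99a, miR-99b and miR-100, which resemble miR-10 in sequence but lie outside the HOX clusters. Of the 8 arms, 0 passed the edgeR test in either direction after FTO siRNA, whereas DESeq2 called miR-99a-5p (log2 fold change -0.62) and miR-615-3p (-0.60) lower. Between m6A and IgG 0 of the 7 tested passed, whereas with TMM factors miR-615-5p (-1.30), miR-99a-3p (-1.29) and miR-100-5p (-0.92) were lower. In the IgG precipitates against the input, miR-615-5p (2.63) and miR-100-5p (2.45) rose, and miR-99a-5p (-1.26) and miR-99b-5p (-2.06) fell, all with the same direction under TMM, whereas with totals without miR-6080 miR-99a-5p was at -0.12 (adjusted p = 0.791) and miR-99b-5p at -0.92 (adjusted p = 0.0384). TMM factors also put miR-615-3p (-1.06) past the threshold as lower, and totals without miR-6080 put miR-99a-3p (1.89) and miR-99b-3p (1.90) past it as higher. In the m6A precipitates against the input miR-615-5p (2.07) and miR-100-5p (2.37) rose and miR-99b-5p fell (-1.28). With TMM factors the first pair, at 0.52 and 0.84, no longer passed. miR-99b-5p (-2.83), miR-99a-5p (-2.32), miR-615-3p (-1.83), miR-99a-3p (-1.24) and miR-99b-3p (-0.90) were then lower, so falls under TMM were not particular to the miR-10 and miR-196 arms. With totals without miR-6080, miR-99b-5p, at -0.82, no longer passed (adjusted p = 0.0923), and miR-99b-3p (1.11) was higher.

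The likeness of profiles was measured over all 15 libraries as the root mean square difference of log2(RPM + 1), each profile centred on its own mean, among 438 other miRNAs with a mean of at least 100 RPM. miR-10a-5p and miR-10b-5p were each other's nearest, at 0.27, followed for both by miR-107 (0.40 and 0.39) and miR-151a-3p (0.51 and 0.50). The nearest to miR-196b-5p were miR-148b-3p (0.27), miR-4443 (0.55) and miR-126-5p (0.58). Those nearest to miR-196a-5p were miR-28-3p (0.65), miR-769-5p (0.69) and miR-30d-5p (0.74), so no miRNA followed it as closely as the nearest profiles of the other 3 guides, and miR-196b-5p was not among them. All 15 libraries share their totals and the 3 clones, and these values are a description.

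The m6A methyltransferase complex that acts on mRNA is known to place m6A on A in AAC or GAC. On the sequences given above, AAC occurs in miR-196a-3p and GAC in miR-196b-3p, and neither occurs in miR-10a-5p, miR-10a-3p, miR-10b-3p, miR-196a-5p or miR-196b-5p. Of all 2370 mature sequences in the table, 36.1% hold AAC or GAC on the miRNA strand. The longer form RRACH (R is A or G, H is A, C or U) occurs in 20.7% of them. Of the sequences given above only miR-196a-3p holds it, as AAACU. This search says only which letters are present, and miR-10b-5p was not searched.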

How the data were processed

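Small RNA of 15 libraries was counted, 3 in each of 5 groups. The values are raw read counts for each mature miRNA as deposited, in 1 table for the siRNA libraries and 1 for the RIP-seq libraries. Per the methods, adapters were trimmed with cutadapt, and short reads were matched to the mature human miRNAs of miRBase, to which the siRNA sequences were added for the knockdown. Reads carry no molecular identifiers, so intervals cover counting error only. The RNA of 1 clone per library gives n = 3. With the cell line as a block, differences in level between the clones are taken out. The p-values then rest in part on how far the difference within a clone varied over the 3 clones. edgeR moderates that spread toward the trend over all miRNAs of the fit, so the p-values do not measure the 3 clones alone.

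RPM were computed from the totals of each library. Each comparison was fitted over all miRNAs of its table with edgeR 4.0.16 under R 4.3.3 (glmQLFTest after glmQLFit, cell line as a block, the total of miRNA reads as library size, and a filterByExpr min.count of 10), with Benjamini-Hochberg adjustment at 0.05. For a ratio, the reads of the partner miRNA, at least 10 in each library, replaced the library size. The SE given with an edgeR value is its absolute log2 change divided by the square root of the F statistic of the test. It is not the standard error over the 3 clones. DESeq2 was version 1.42.0, and values per library were computed with pandas 2.3.3 and scipy 1.17.1 under Python 3.11.15. The fits were tested on simulated counts, whose changes were balanced in direction and which held no differences between clones. That setting differs from these data, so it does not show how the fits perform on them. Counting intervals of a ratio of reads are exact (Clopper-Pearson, 95%).

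Libraries of the same clone are paired by origin. Their deviations from the group means correlated at 0.121 to 0.189 between FTO siRNA and scrambled siRNA, 0.012 to 0.037 between m6A and IgG, -0.071 to -0.028 between m6A and input and -0.027 to 0.066 between IgG and input. No pair of libraries of a group agreed within sampling noise.

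The members were all miRNAs with the 4 name stems, the named relatives were miR-615, miR-99a, miR-99b and miR-100, and the 3 nearest profiles of each guide were named. Members, lists and tests were chosen with earlier results of these data known. The alternatives were TMM factors, DESeq2, no filter, no cell line block, each clone left out, totals without the 8 miRNAs, totals without miR-6080, a minimum of 100 partner reads, a pseudocount of 10 in place of 1 RPM and, chosen after the data were seen, exchange of the miRNAs of a ratio and other scales for the relatives. The counts of reads on the siRNA sequences were not used.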

Additional observations from a re-analysis of the deposited data

How the results depend on the processing

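Of 280 fold changes of the 8 miRNAs under the alternatives, 233 kept their sign and their side of the threshold, as did 81 of 95 ratios. Without the 8 miRNAs in the totals and without the filter none changed. After FTO siRNA, 0 to 1 were lower with a clone left out, 0 without FTO1C1. For m6A against input, TMM factors gave 0 higher and 7 lower, DESeq2 0 and 7, totals without miR-6080 gave 2 higher (miR-10b-3p, at 1.02, and miR-196b-3p) and 3 lower, and leaving out a clone 0 to 1 higher. For IgG against input, totals without miR-6080 gave 2 higher (miR-10b-3p and miR-196b-3p) and 5 lower, with miR-196a-3p lost. With at least 100 reads of the partner, 3 ratios passed in place of 8, as only 7 could be fitted.

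In the precipitates, miR-10b-3p, miR-196b-3p and, against IgG, miR-196b-5p turned sign with the scale. For m6A against IgG, TMM, DESeq2 and totals without miR-6080 gave -0.65, -0.69 and -0.59 for miR-10b-3p, -0.092, -0.092 and -0.040 for miR-196b-3p and -0.54, -0.57 and -0.49 for miR-196b-5p, none past the threshold. For m6A against input, TMM and DESeq2 gave -0.99 and -1.01 for miR-10b-3p, both past the threshold, and -0.36 and -0.40 for miR-196b-3p. For IgG against input they gave -0.10 and -0.15 for miR-10b-3p and -0.13 and -0.18 for miR-196b-3p.

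With a clone left out, the fold change after FTO siRNA ranged from -0.098 to 0.067 for miR-10a-3p, -0.19 to 0.11 for miR-10a-5p, -0.20 to 0.096 for miR-10b-5p, -0.13 to 0.046 for miR-196a-3p and -0.077 to 0.081 for miR-196b-5p, and that of miR-10b-3p in m6A against IgG from -0.056 to 0.25. The ratio of miR-10a-5p to miR-10a-3p after FTO siRNA ranged from -0.26 to 0.12, and that of miR-10a-5p to miR-10b-5p in IgG against input from -0.034 to 0.30.

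The cell line pairs the libraries. Without the replicate block the number of the 8 called was the same in each comparison, 0 higher and 1 lower after FTO siRNA (miR-196a-5p, edgeR adjusted p = 0.0444) and 5 higher in m6A against IgG, while the overall calls after FTO siRNA fell to 37 higher and 4 lower, and miR-196b-5p stood at 0.0014. With a pseudocount of 10 RPM, 2 of the 3 nearest profiles were shared for 3 guides and all 3 for miR-196a-5p. The low IgG counts, 2 to 25 reads for miR-10a-3p, miR-196a-5p, miR-196b-5p and miR-196b-3p, limit what those comparisons can show. The causes of these differences were not tested.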

Other observations

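The inputs and the siRNA libraries came from the same 3 clones but from different experiments and tables, so treatment and experiment cannot be told apart and no test was made. Reads of miR-196a-5p per read of miR-196b-5p were 0.168 ± 0.029 in the inputs, 0.263 ± 0.094 with FTO siRNA and 0.755 ± 0.232 with scrambled siRNA (SD, n = 3). The FTO siRNA values, and not those of the scrambled control, were thus the nearer to the inputs. Reads of miR-196a-5p per read of miR-196a-3p were 1.49 ± 0.58 in the inputs, 5.72 ± 0.53 with FTO siRNA and 16.5 ± 2.96 with scrambled siRNA. The ratio of miR-10a-5p to miR-10b-5p was 3.33 ± 0.16 in the inputs, 2.81 ± 0.13 with FTO siRNA and 2.75 ± 0.25 with scrambled siRNA.

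FTO2D4 had the highest level of miR-196a-5p in the scrambled siRNA, FTO siRNA, input and m6A libraries, and the highest of miR-196a-3p in the same 4 groups. In the IgG libraries FTO3C3 was highest for both, on 9 and 23 reads.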
